A study of Homo sapiens with 6 samples.

Results

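The genes described here are 45 members of glycolysis and the hypoxia response, named by symbol in a list and found in a table of 21173 genes. The list holds 26 genes of glucose uptake, glycolysis and the fate of pyruvate and 19 genes of the hypoxia-inducible factors, their oxygen sensors and their targets. The RNA came from TPC1, an established human cell line of papillary thyroid carcinoma. There were 3 libraries of TPC1 cells overexpressing TFCP2L1 (genotype TFCP2L1 OE) and 3 of TPC1 cells with the vector (genotype WT), with no other treatment in the labels. TFCP2L1 is a transcription factor of the CP2 family. How the cells were made, how many clones they came from, the oxygen and glucose in the culture and whether replicates were separate cultures are unknown from the labels. The p-values therefore reflect the spread among these 6 libraries alone, and that spread may be technical.

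Glycolysis splits glucose into pyruvate in a fixed chain of cytosolic enzymes, most of which exist as several isoenzymes from separate genes. Cancer cells often run it fast and turn pyruvate into lactate even with oxygen present, and papillary thyroid tumours are imaged with a labelled glucose analogue for that reason when they no longer take up iodine. The hypoxia-inducible factors pair an oxygen-labile alpha subunit (HIF1A or EPAS1) with a stable partner (ARNT). Prolyl hydroxylases mark the alpha subunits for destruction when oxygen is present. Without oxygen the pair binds the core sequence ACGTG or GCGTG near its targets, which include many glycolysis genes. Control of the alpha subunits is largely at the protein level, which was not measured here.

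The labels were checked on the overexpressed gene: TFCP2L1 had 13578, 13885 and 12333 reads in the TFCP2L1 libraries and 0, 0 and 1 in the vector libraries. Library totals ran from 37928516 to 38987434 reads. The thyroid factor PAX8 averaged 478 ± 47.4 CPM (read counts scaled to a common library size with TMM) in TFCP2L1 cells and 544 ± 24.4 CPM in vector cells (SD, n = 3 each), while thyroglobulin, TG, the product of differentiated thyroid cells, was near 1 CPM in both. Among markers of other cells, leukocyte genes were near 0, with at most 8 reads of PTPRC, CD79A or CD14 in any TFCP2L1 library and at most 16 in any vector library. Of the fibroblast markers, COL3A1 had 0 reads in each TFCP2L1 library and 1 in each vector library, but others were detected. COL1A1 had 161, 141 and 128 reads in TFCP2L1 libraries and 180, 203 and 185 in vector libraries, which did not overlap (log2 fold change -0.44, not called, edgeR adjusted p = 0.127), and PDGFRB had 134, 110 and 138 reads in TFCP2L1 libraries and 138, 149 and 134 in vector libraries. The endothelial gene PECAM1 had 38, 46 and 34 reads in TFCP2L1 libraries and 35, 21 and 35 in vector libraries, while VWF had at most 6 in any library. The part of these markers in the results was not tested. One library of each group stood apart. Mitochondrially encoded genes took 7.59% of reads in TFCP2L1 replicate 3, against 5.19% and 5.80% in the other two of that group, and 6.72% in vector replicate 2, against 5.14% in each of the other two (5.144% and 5.135%).

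Of the 45 members, 44 passed the filter on low counts and 12 were called: 11 fell and 1 rose in TFCP2L1 cells (edgeR quasi-likelihood test, Benjamini-Hochberg adjusted p under 0.05 over all 14431 tested genes). That is 27.3% of the tested members, against 11.6% called over all tested genes, of which 6.94% of genes were lower and 4.63% higher. The glycolysis genes that fell were the glucose transporter SLC2A3, the phosphofructokinase subunit PFKL, PFKFB2, the enolase ENO2 and the lactate dehydrogenase LDHA. The hypoxia genes that fell were both alpha subunits, HIF1A and EPAS1, with CA12, ADM, P4HA2 and LOX. NDRG1 rose. The changes were modest: fold changes of called members ran from -0.79 to 0.67 on the log2 scale, and their median size was 0.48, against 0.49 over all called genes. Over all tested members the median log2 fold change was -0.05, against 0.00 over all tested genes, and 32 of 44 members were not called. Both groups' values were fully separate for 22 of 44 tested members, against 30.0% of all tested genes. The member counts ran from 11 to 14 with any 1 library left out and were 11 without both libraries of high mitochondrial share, an alternative added after seeing the data. The count over all genes was less steady, at 943 called without vector replicate 1 and 934 without vector replicate 3, against 1670 with all libraries. It was 1426 without both libraries of high mitochondrial share.

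**Figure D1:**
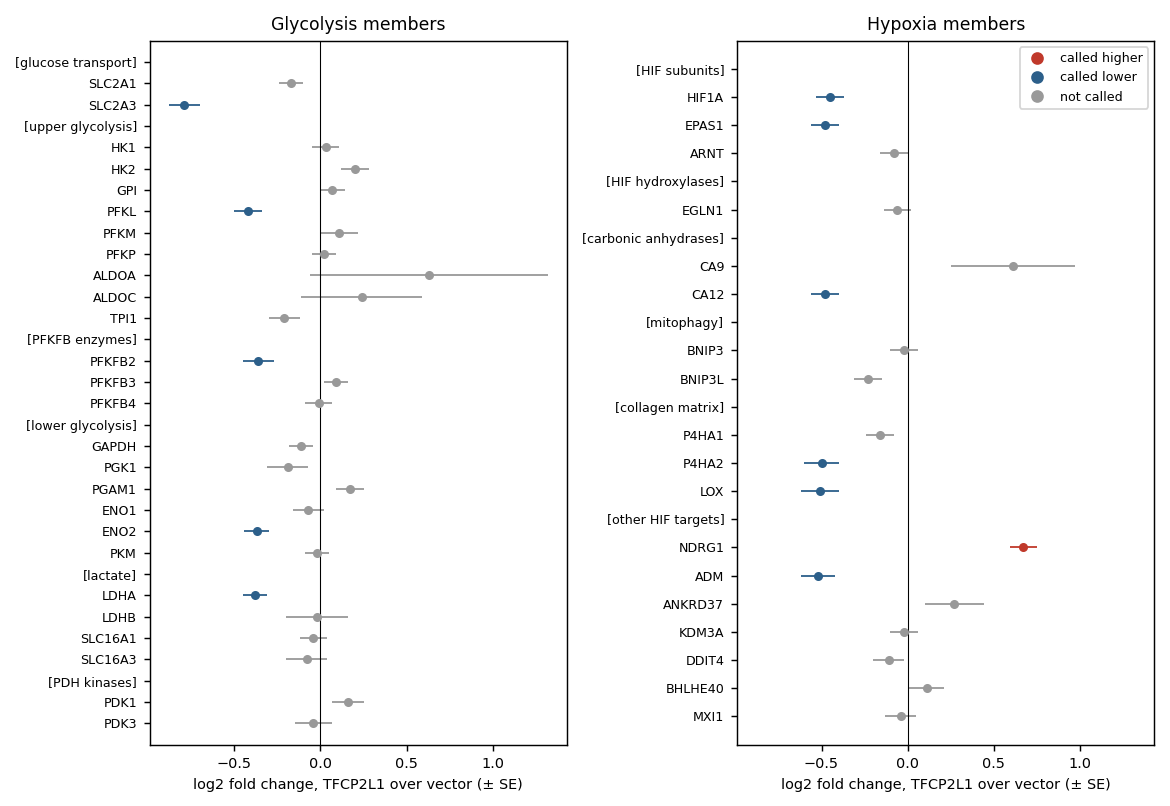
Log2 fold change of the 44 tested members, TFCP2L1 over vector, with standard errors (horizontal axis), ordered by role. The 11 called lower (blue) lie between -0.79 and -0.36, NDRG1 (red) is the 1 called higher at 0.67, and the grey points were not called; ALDOA and CA9 have the widest bars.

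Levels per gene length were compared as FPKM, the authors' deposited values, read here over all 6 libraries. The members with the highest FPKM were enzymes of the later steps of glycolysis, with LDHA. GAPDH averaged 3002 FPKM and ranked 12 among all genes of the table, followed by PKM (1225 FPKM, rank 34), LDHA (1155 FPKM, rank 38) and ENO1 (849 FPKM, rank 45). All of these were among the 50 most abundant transcripts by this measure. Not every later enzyme ranked so high. PGK1 averaged 154 FPKM (rank 300), under TPI1 of the upper part at 407 FPKM (rank 108). Among the hypoxia members, DDIT4 (195 FPKM), NDRG1 (181 FPKM) and BNIP3 (159.9 FPKM) were the most abundant, and HIF1A stood at 133 FPKM. At the other end, the aldolase gene ALDOC and the carbonic anhydrase gene CA9 lay under 1 FPKM on average in both groups. EGLN3, an oxygen-sensing prolyl hydroxylase that HIF strongly induces in many cells, had 1, 1 and 0 reads in the TFCP2L1 libraries and 0, 1 and 0 in the vector libraries, and was the 1 member not tested.

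**Figure D2:**
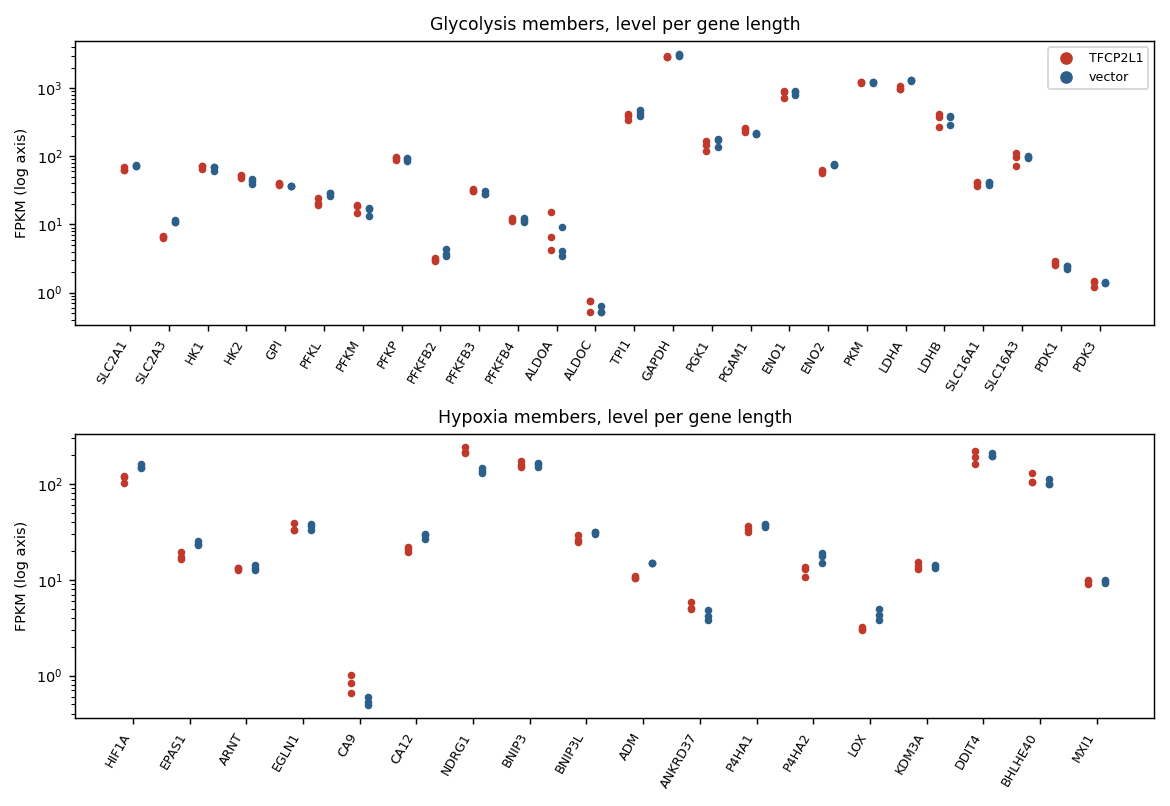
FPKM of each tested member in each library on a log axis, TFCP2L1 in red and vector in blue, glycolysis above and hypoxia below. GAPDH, PKM, LDHA and ENO1 stand highest, ALDOC and CA9 lowest, and for most genes the points of both groups lie close together.

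Glucose enters through facilitative transporters. SLC2A3 (ENSG00000059804.15; GRCh38 chromosome 12, 7919230 to 7936275, minus strand), the high-affinity glucose transporter GLUT3, had 25.1, 23.9 and 24.9 CPM in the TFCP2L1 libraries and 41.5, 42.4 and 44.2 CPM in the vector libraries. Every TFCP2L1 library lay far below every vector library. The log2 fold change was -0.79 ± 0.09 (SE), a fall of 42.3%, with an edgeR adjusted p of 1.29e-05. SLC2A3 shares 16.0% of its 50-base stretches with other annotated genes, chiefly its near-copy SLC2A14, which was counted at 0 reads in the TFCP2L1 libraries and at 4 in the vector libraries together. SLC2A1, the basal transporter GLUT1 and the more abundant of the pair, had 235, 215 and 212 CPM in TFCP2L1 libraries and 243, 256 and 244 CPM in vector libraries. Its groups did not overlap either, but the difference of -0.17 ± 0.07 on the log2 scale was not called (edgeR adjusted p = 0.163). In FPKM, SLC2A1 made up 91.0% ± 0.371 of the pair in TFCP2L1 cells and 86.8% ± 0.524 in vector cells (SD, n = 3 each).

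In the upper part of the chain, glucose is phosphorylated by hexokinases and the product is committed to glycolysis by phosphofructokinase. Of 9 members here 1 fell (11.1%, near the 11.6% called over all tested genes). PFKL, the liver-type subunit of phosphofructokinase, had 95.3, 78.5 and 83.3 CPM in TFCP2L1 libraries and 117, 108 and 119 CPM in vector libraries. The groups did not overlap, and the log2 fold change was -0.42 ± 0.08 (edgeR adjusted p = 0.00329). The muscle-type subunit gene PFKM (0.11 ± 0.11) and the platelet-type PFKP (0.02 ± 0.07) were not called. PFKP was the main isoform, with 70.6% ± 1.03 of the family's FPKM in TFCP2L1 cells and 67.3% ± 1.13 in vector cells (SD, n = 3 each). HK2, the inducible hexokinase bound to mitochondria, had 304, 299 and 283 CPM in TFCP2L1 libraries and 260.0, 237 and 272 CPM in vector libraries. It was higher in all 3 TFCP2L1 libraries but not called (0.20 ± 0.08; edgeR adjusted p = 0.0965). HK1, the constitutive hexokinase, was at 385 ± 22.9 and 376 ± 27.2 CPM in TFCP2L1 and vector cells, and GPI, which turns glucose 6-phosphate into fructose 6-phosphate, was at 433 ± 9.67 and 412 ± 5.95 CPM (SD, n = 3 each). TPI1, which brings both pieces of the split sugar into 1 stream, was at -0.21 ± 0.09 on the log2 scale (edgeR adjusted p = 0.152).

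ALDOA, the main muscle and tumour aldolase, was read at only 14.0, 9.03 and 32.8 CPM in TFCP2L1 libraries and 8.90, 19.9 and 7.35 CPM in vector libraries. The highest value of each group stood in its library of high mitochondrial share. In GENCODE v29, 42.3% of the exon bases of ALDOA lie within a second gene on the same strand, and RefSeq has an overlapping gene there as well, LOC112694756, which was counted at 41, 33 and 72 reads in TFCP2L1 libraries and 43, 105 and 52 in vector libraries. Reads shared by overlapping genes can be left out by a gene counter, so the level of ALDOA is uncertain. Its log2 fold change of 0.63 ± 0.69 was not called (edgeR adjusted p = 0.659).

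The PFKFB enzymes make and break fructose 2,6-bisphosphate, the strongest activator of phosphofructokinase. PFKFB2, the heart-type isoform, had 36.3, 34.97 and 33.7 CPM in TFCP2L1 libraries and 43.0, 41.5 and 50.4 CPM in vector libraries. The groups did not overlap, and the log2 fold change was -0.36 ± 0.09 (edgeR adjusted p = 0.0191). That call was lost without the highest vector library: without vector replicate 3 the fold change was -0.27 and the edgeR adjusted p was 0.157. Over all genes 934 were called without that library, against 1670 with all. The PFKFB2 call was also lost in some alternatives that kept all 6 libraries. PFKFB3, the hypoxia-inducible and most glycolytic isoform, was the most abundant of the 3 by length, with a mean of 30.3 FPKM over all libraries. It averaged 169 ± 4.88 CPM in TFCP2L1 cells and 158 ± 7.59 CPM in vector cells (SD, n = 3 each) and was not called (0.09 ± 0.07 on the log2 scale), nor was PFKFB4 (-0.01 ± 0.08).

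In the lower part, where energy is recovered, 1 of 6 members fell (16.7%, against the same 11.6%). ENO2, the neuronal enolase, had 140.3, 138 and 129.5 CPM in TFCP2L1 libraries and 179.8, 172 and 174 CPM in vector libraries, with a log2 fold change of -0.37 ± 0.07 (edgeR adjusted p = 0.00263). The groups were well apart. ENO1, the general enolase, was far more abundant and was not called (-0.07 ± 0.09). ENO2 made up 6.70% ± 0.459 of the summed FPKM of ENO1 and ENO2 in TFCP2L1 cells and 8.09% ± 0.435 in vector cells (SD, n = 3 each). PKM, pyruvate kinase, was at 4089 ± 127 and 4136 ± 59.9 CPM in TFCP2L1 and vector cells (SD, n = 3 each), a log2 fold change of -0.02 ± 0.07. GAPDH, often used as a reference transcript, was lower in all 3 TFCP2L1 libraries, at 5093, 4985 and 4921 CPM, against 5624, 5291 and 5280 CPM in vector libraries, but by only -0.11 ± 0.07 on the log2 scale (edgeR adjusted p = 0.393). PGAM1, phosphoglycerate mutase, had 492, 427 and 479 CPM in TFCP2L1 libraries and 425, 414 and 406 CPM in vector libraries and was not called (0.17 ± 0.08; edgeR adjusted p = 0.181). Without TFCP2L1 replicate 2 PGAM1 passed the threshold (edgeR adjusted p = 0.0435), and 30.5% of its 50-base stretches also stand in other annotated genes. PGK1, which makes the first ATP of the chain, was at -0.19 ± 0.12.

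At the branch point, LDHA (ENSG00000134333.13; GRCh38 chromosome 11, 18394388 to 18408425, plus strand), which turns pyruvate into lactate, had 2431, 2647 and 2470.0 CPM in TFCP2L1 libraries and 3318, 3218 and 3277 CPM in vector libraries. All 3 TFCP2L1 libraries lay below all vector libraries. The fall was 23.1%, a log2 fold change of -0.38 ± 0.07 (edgeR adjusted p = 0.00307). In CPM it was the largest difference between group means among the glycolysis members. LDHB, the heart-type subunit that favours the reverse reaction, had 735, 806 and 528 CPM in TFCP2L1 libraries and 782, 564 and 751 CPM in vector libraries. Its groups overlapped fully, with the lowest value of each in the library of high mitochondrial share, and the log2 fold change was -0.02 ± 0.18. A second gene on the same strand covers 33.4% of its exon bases, so its level is less certain. LDHA made up 74.2% ± 3.75 of the pair's FPKM in TFCP2L1 cells and 78.6% ± 2.66 in vector cells (SD, n = 3 each), and those shares overlapped. The monocarboxylate carriers that move lactate across the membrane were not called, SLC16A1 at -0.04 ± 0.08 and SLC16A3 at -0.08 ± 0.12. The kinases that shut pyruvate out of mitochondria by switching off pyruvate dehydrogenase were not called either, PDK1 at 0.16 ± 0.09 and PDK3 at -0.04 ± 0.11.

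**Figure D3:**
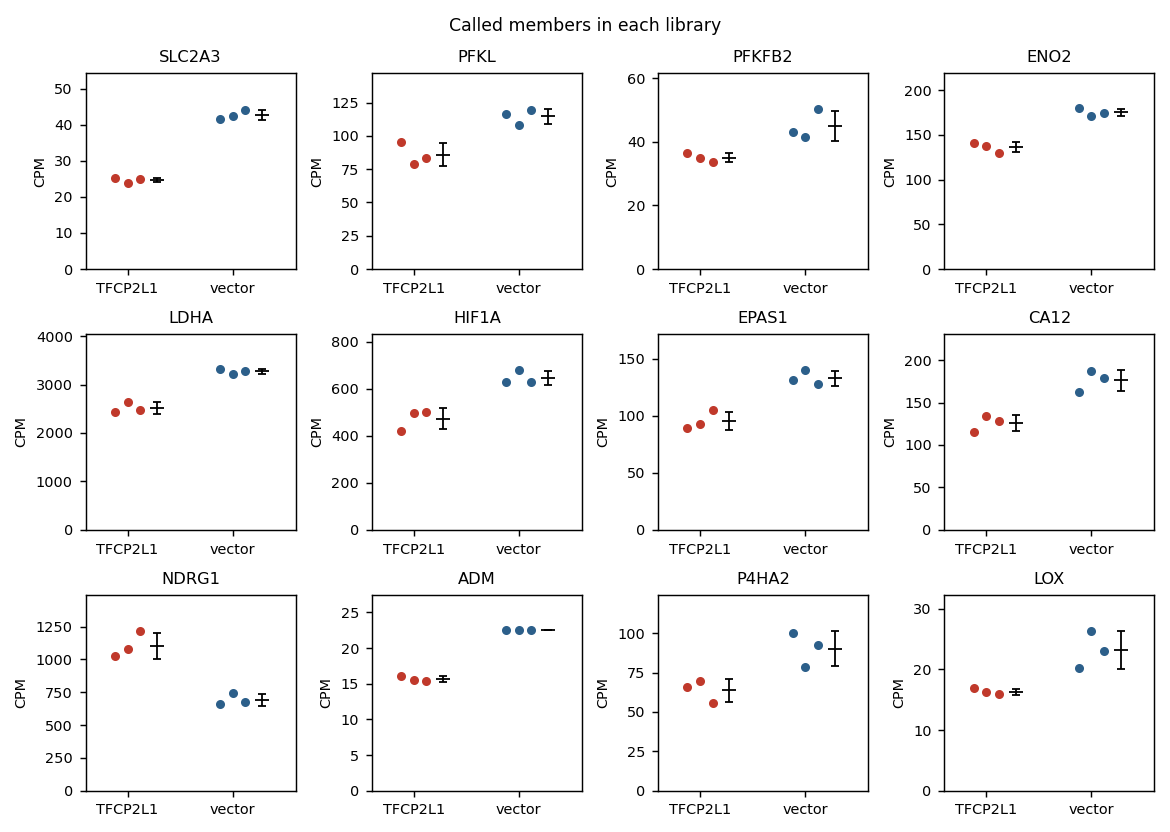
CPM of the 12 called members in each library (points), with group means and SD beside them (black bars), TFCP2L1 left and vector right, each axis from 0. In every panel the 3 TFCP2L1 points lie on 1 side of the 3 vector points, above them for NDRG1 and below them for the other 11.

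Both oxygen-regulated alpha subunits fell while their partner did not pass the test. HIF1A (ENSG00000100644.16; GRCh38 chromosome 14, 61695513 to 61748259, plus strand) had 420.0, 495 and 501 CPM in TFCP2L1 libraries and 627, 680.3 and 631 CPM in vector libraries. The groups were clearly separate, and the log2 fold change was -0.45 ± 0.08, a fall of 26.9% (edgeR adjusted p = 0.00168). EPAS1 (ENSG00000116016.13; chromosome 2, 46293667 to 46386703, plus strand), which encodes HIF-2 alpha, had 89.1, 92.9 and 105 CPM in TFCP2L1 libraries and 131, 140.4 and 128 CPM in vector libraries, a log2 fold change of -0.48 ± 0.08 (edgeR adjusted p = 0.000816). Their balance was alike in both groups: EPAS1 made up 13.5% ± 0.776 of their summed FPKM in TFCP2L1 cells and 13.7% ± 0.195 in vector cells (SD, n = 3 each). ARNT was at 64.2 ± 1.99 and 67.9 ± 4.98 CPM in TFCP2L1 and vector cells (SD, n = 3 each), with a log2 fold change of -0.08 ± 0.08 and an edgeR adjusted p of 0.587. EGLN1, the main oxygen-sensing prolyl hydroxylase and itself a HIF target, was at -0.06 ± 0.08. An antisense gene at HIF1A covers 2.27% of its exon bases.

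Among targets, NDRG1, a stress-induced gene linked to differentiation and to suppression of metastasis, was the 1 called member that rose. It had 1023, 1077 and 1214 CPM in TFCP2L1 libraries and 657, 741 and 678 CPM in vector libraries. The lowest TFCP2L1 library was well above the highest vector library. NDRG1 was 59.6% higher in TFCP2L1 cells, a log2 fold change of 0.67 ± 0.08 (edgeR adjusted p = 4.82e-05). ADM, the vasodilator peptide adrenomedullin, had 16.1, 15.5 and 15.4 CPM in TFCP2L1 libraries and 22.5 CPM in each vector library, and fell by 30.3% (log2 fold change -0.52 ± 0.10; edgeR adjusted p = 0.00249). The 2 groups of ADM values were both tight and far apart.

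CA12, a membrane carbonic anhydrase that helps export acid, had 116, 134 and 129 CPM in TFCP2L1 libraries and 162, 187 and 179 CPM in vector libraries, a log2 fold change of -0.48 ± 0.08 (edgeR adjusted p = 0.000861). Its relative CA9, a classical HIF1A target in tumours, was near the limit of detection, with 39, 50 and 60 reads in TFCP2L1 libraries and 31, 29 and 35 in vector libraries. CA9 values did not overlap and pointed up, but the log2 fold change of 0.61 ± 0.36 was not called (edgeR adjusted p = 0.316), and an opposite-strand gene covers 38.5% of its exon bases.

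The members that shape collagen were P4HA1, P4HA2 and LOX. P4HA2, a prolyl hydroxylase of collagen, had 65.8, 69.8 and 55.5 CPM in TFCP2L1 libraries and 99.9, 78.3 and 92.5 CPM in vector libraries, a log2 fold change of -0.50 ± 0.10 (edgeR adjusted p = 0.00386). The lowest value of each group was in its library of high mitochondrial share. LOX, which cross-links collagen and elastin, had 16.9, 16.3 and 15.9 CPM in TFCP2L1 libraries and 20.2, 26.4 and 23.0 CPM in vector libraries, a log2 fold change of -0.51 ± 0.11 (edgeR adjusted p = 0.00770). The groups did not overlap, and vector replicate 2 was the highest of all. Without both libraries of high mitochondrial share LOX stood at -0.38 and was not called (edgeR adjusted p = 0.0597). P4HA1, the paralogue with the higher level, was at -0.16 ± 0.08 and was not called.

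Of the mitophagy receptors, BNIP3 had 239, 265 and 231 CPM in TFCP2L1 libraries and 249, 238 and 258 CPM in vector libraries, which overlapped throughout (-0.02 ± 0.08). BNIP3L was lower in all 3 TFCP2L1 libraries, at 91.8, 103 and 88.0 CPM, against 112, 108 and 113 CPM in vector libraries, and fell short of the threshold (-0.23 ± 0.08; edgeR adjusted p = 0.0647), which it passed without TFCP2L1 replicate 2 (0.0139). Several other standard HIF targets were not called: ANKRD37 (0.27 ± 0.17), BHLHE40, a circadian repressor (0.11 ± 0.10), KDM3A, a histone demethylase (-0.02 ± 0.08), MXI1, a MYC antagonist (-0.04 ± 0.09), and DDIT4, an inhibitor of mTORC1 (-0.11 ± 0.09). The values of DDIT4 were 374, 277 and 332 CPM in TFCP2L1 libraries and 367, 348 and 344 CPM in vector libraries, so its spread was wider than the difference. An opposite-strand gene covers 41.2% of the exon bases of DDIT4 and 35.2% of those of ANKRD37.

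The HIF core motif was looked for in the promoter windows of the members, since many of them are known HIF targets. RefSeq windows (GRCh38.p14) of 300 bases, 250 before to 50 after the start, were searched and are given here for 40 members. No window was held for SLC2A3, PFKFB2 and SLC16A1. NDRG1, the called member that rose, and BNIP3L were left out of the search. The letters searched were ACGTG and GCGTG on either strand. A palindrome CACGTG, which is also the E-box bound by MYC, matches on both strands. The windows of 3 members that fell (LDHA, ADM and P4HA2) and of 2 that were not called (PGK1 and BNIP3, both textbook HIF targets) are shown because they span the range from no match to several. Capitals mark the matches.

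LDHA, chr11:18394313-18394612, plus strand: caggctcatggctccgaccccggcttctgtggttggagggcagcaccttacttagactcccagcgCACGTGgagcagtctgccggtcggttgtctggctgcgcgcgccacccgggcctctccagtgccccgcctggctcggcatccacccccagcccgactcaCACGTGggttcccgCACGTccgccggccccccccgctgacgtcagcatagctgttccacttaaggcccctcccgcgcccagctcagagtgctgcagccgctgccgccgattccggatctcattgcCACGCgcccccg
ADM, chr11:10304823-10305122, plus strand: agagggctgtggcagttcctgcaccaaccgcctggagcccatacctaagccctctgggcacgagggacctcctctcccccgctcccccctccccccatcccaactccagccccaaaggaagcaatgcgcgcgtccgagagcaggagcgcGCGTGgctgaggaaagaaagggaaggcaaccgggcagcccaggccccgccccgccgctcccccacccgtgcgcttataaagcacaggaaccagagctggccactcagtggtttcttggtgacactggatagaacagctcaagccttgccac
P4HA2, chr5:132227042-132227341, minus strand: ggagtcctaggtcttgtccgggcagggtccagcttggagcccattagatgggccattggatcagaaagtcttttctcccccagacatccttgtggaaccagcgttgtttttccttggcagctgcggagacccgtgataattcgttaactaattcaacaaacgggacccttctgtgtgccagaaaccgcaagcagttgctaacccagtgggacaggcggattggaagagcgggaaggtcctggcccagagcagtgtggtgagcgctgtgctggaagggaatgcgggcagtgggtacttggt
PGK1, chrX:78103998-78104297, plus strand: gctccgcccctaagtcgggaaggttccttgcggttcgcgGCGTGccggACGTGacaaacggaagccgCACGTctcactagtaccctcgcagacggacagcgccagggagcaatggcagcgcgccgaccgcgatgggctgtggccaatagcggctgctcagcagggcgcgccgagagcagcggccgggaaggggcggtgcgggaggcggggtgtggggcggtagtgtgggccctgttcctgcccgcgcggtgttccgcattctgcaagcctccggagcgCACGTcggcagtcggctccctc
BNIP3, chr10:131981874-131982173, minus strand: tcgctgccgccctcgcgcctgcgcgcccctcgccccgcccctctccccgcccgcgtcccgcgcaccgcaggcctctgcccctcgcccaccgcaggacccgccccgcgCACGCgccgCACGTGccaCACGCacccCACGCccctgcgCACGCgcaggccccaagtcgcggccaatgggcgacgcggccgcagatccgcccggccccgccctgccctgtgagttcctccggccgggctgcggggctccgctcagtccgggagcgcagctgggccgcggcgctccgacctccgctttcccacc

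Counting each strand, LDHA and BNIP3 had 6 matches each, PGK1 had 4, ADM had 1 and P4HA2 had 0. LDHA, ADM and P4HA2 fell, while PGK1 and BNIP3 were not called. GENCODE v29 places the outermost starts of P4HA2, PGK1 and ADM upstream of the windows shown, at 132295315, 77910739 and 10304680. Those starts were not searched, so no match in the P4HA2 window does not cover its other starts. These windows were chosen for show, and whether the number of matches relates to the change was not tested. Taking the first listed window of each gene, 29 of 40 members had a match (72.5%), against 62.4% of the 11310 tested genes with a window. The member shares leave out NDRG1 and BNIP3L, so they may not be like for like with those over tested genes. Among members the share was 8 of 9 for those that fell and 21 of 30 for those tested and not called, and over all genes called lower it was 54.1%. The tandem motif of CP2 factors, the family of TFCP2L1, was searched on both strands. It stood in 9 of 9 windows of members that fell and in 24 of 30 of those not called, against 72.7% over tested genes and 75.1% over all genes called lower. Both motifs are short and common, members' windows may differ from others in base composition, and no test of these shares was made.

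Libraries of high mitochondrial share moved with several members inside each group. For 17 of 44 tested members the lowest value of both groups stood in TFCP2L1 replicate 3 and vector replicate 2. For 6 the highest did. These counts were not made over all tested genes, so the pattern may not be particular to the members. PGK1 was among the 17. It had 703, 796 and 573 CPM in TFCP2L1 replicates 1, 2 and 3 and 859, 671 and 834 CPM in vector replicates 1, 2 and 3. Within groups its values ran over 1.39-fold and 1.28-fold in TFCP2L1 and vector cells. Those of LDHB ran over 1.53-fold and 1.38-fold, while those of LDHA ran over 1.09-fold and 1.03-fold. HIF1A, EPAS1 and NDRG1 were among the 6 members highest in those libraries in both groups. Without both libraries, 11 of 44 members were called, 10 lower and 1 higher, with HIF1A, EPAS1, LDHA and NDRG1 among them. Over all genes 1426 were called in that setting, 878 lower and 548 higher, against 1670 with all libraries.

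**Figure D4:**
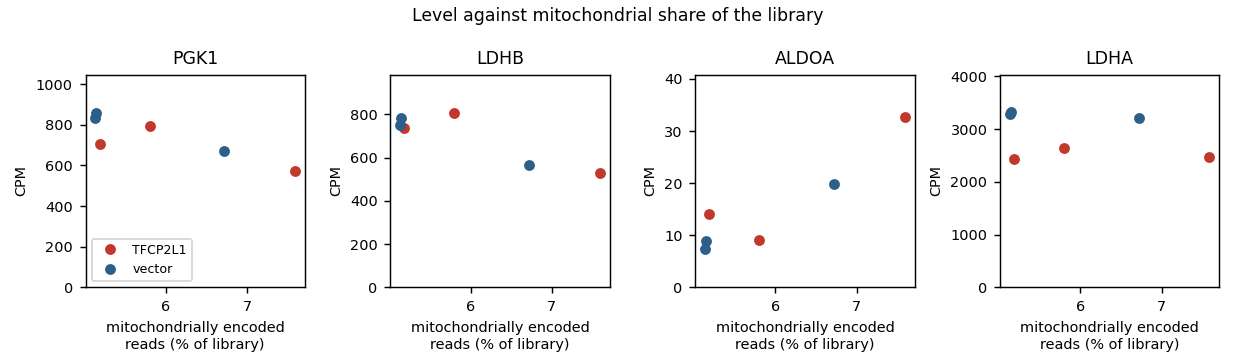
CPM of PGK1, LDHB, ALDOA and LDHA (vertical axes, from 0) against the share of reads from mitochondrially encoded genes (horizontal axes), 1 point per library, TFCP2L1 red and vector blue. PGK1 and LDHB are lowest and ALDOA highest in the 2 libraries with shares of 7.59% and 6.72%, while for LDHA the 3 TFCP2L1 points lie below all 3 vector points.

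Isoenzyme balance was compared in 13 families as the share of 1 member in the family's summed FPKM. Each family holds members of the main list only, so further genes of the same kind are not in these sums. In 6 families the shares of both groups did not overlap. Beside SLC2A1, PFKP and ENO2 above, HK2 made up 42.0% ± 0.643 of HK1 and HK2 in TFCP2L1 cells and 39.2% ± 0.494 in vector cells, BNIP3 made up 85.7% ± 0.139 and 83.8% ± 0.246 of BNIP3 and BNIP3L, and CA9 made up 3.83% ± 0.671 and 1.85% ± 0.217 of CA9 and CA12 in TFCP2L1 and vector cells (SD, n = 3 each). In each of these 6 the exact two-sided permutation test gave p = 0.1, the smallest possible with 3 libraries a group, and 0.217 after Benjamini-Hochberg adjustment over the 13 families, so none could pass a threshold of 0.05. The shifts were small in size, from -1.39 to 4.24 percentage points. The families of SLC2A1, PFKP, ENO2 and CA9 each hold a called member (SLC2A3, PFKL, ENO2 and CA12), so their shifts are not separate results. Families without overlap were not counted outside these 13. The HK2 share is not a share of all hexokinase, since HKDC1, another hexokinase gene, was left out. HKDC1 averaged 40.6 FPKM in TFCP2L1 cells and 41.9 FPKM in vector cells, near HK2 at 50.8 and 43.3 FPKM. It was not called (-0.07 ± 0.08 on the log2 scale).

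Other genes of these pathways, listed by role, were read from the same fit. Of 33 further glycolysis and pyruvate genes 27 were tested, 4 fell and 1 rose (18.5%, against the 11.6% over all genes). The transporters SLC2A6 and SLC2A10 fell like SLC2A3: SLC2A6 averaged 40.4 ± 4.01 CPM in TFCP2L1 cells and 72.0 ± 4.42 CPM in vector cells, and SLC2A10 averaged 6.08 ± 0.403 and 11.5 ± 0.634 CPM (SD, n = 3 each). The muscle enolase ENO3 fell by 0.97 on the log2 scale, from a low level. PGAM5, a mitochondrial phosphatase and not a glycolytic mutase despite its name, rose by 0.36 ± 0.08. The edgeR adjusted p of these 4 ran up to 0.00664. PGM1, which links glycogen to glycolysis and is named here after its values were seen, was at -0.25 ± 0.07 (edgeR adjusted p = 0.0349), a call lost in 8 alternatives. Of 11 pentose phosphate genes 1 rose and none fell (9.09% called, near the 11.6% over all tested genes). The gene that rose was PRPS2, which makes the ribose donor of nucleotide synthesis (0.46 ± 0.08, edgeR adjusted p = 0.00164).

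Of 38 further hypoxia genes 35 were tested, 10 fell and 3 rose (37.1%, against 11.6% called over all tested genes, 6.94% lower and 4.63% higher). STC2, a secreted glycoprotein, fell to 50.4 ± 1.68 CPM in TFCP2L1 cells, against 93.9 ± 5.68 CPM in vector cells (SD, n = 3 each). CITED2, which competes with HIF for its coactivators, fell by 0.88 and TMEM45A fell by 0.75 on the log2 scale. The edgeR adjusted p of these 3 ran up to 0.000548. Named after their values were seen, the 3 that rose were STC1 (0.43 ± 0.09), IGFBP3 (0.47 ± 0.08) and TMEM158 (0.38 ± 0.09), and VEGFA, the angiogenic factor, fell by 0.30. The calls of STC1 and TMEM158 were lost without vector replicate 1 or 3, and that of VEGFA without any 1 of the vector libraries. PLOD2 (-0.52 ± 0.08), ZNF395 (-0.51 ± 0.09) and WSB1 (-0.43 ± 0.07), also named after their values were seen, fell and kept their calls in all alternatives. VHL, which brings hydroxylated alpha subunits to destruction, was at -0.24 ± 0.08 (edgeR adjusted p = 0.0570) and HIF1AN, the asparaginyl hydroxylase, at -0.01 ± 0.08. Called hypoxia genes moved in both directions but mostly down: 6 fell and 1 rose among the members, and 10 fell and 3 rose in the further list.

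**Figure D5:**
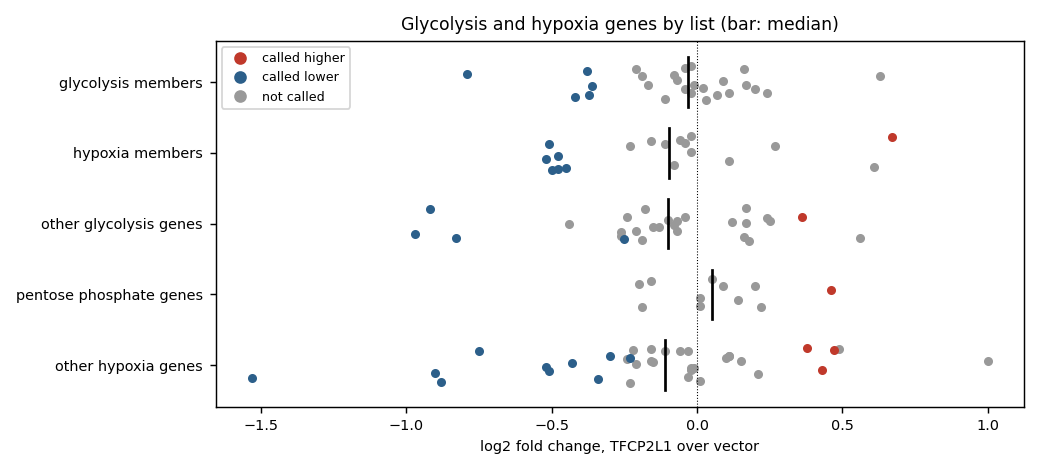
Log2 fold change, TFCP2L1 over vector, of tested genes in 5 lists (points, spread vertically for sight), with the median of each list as a bar. Medians lie between -0.11 and 0.05; 11 of the 12 called members are blue, at -0.79 to -0.36.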

How the data were processed

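RNA was sequenced from 3 TFCP2L1 and 3 vector libraries of TPC1 cells. Per the labels' protocols, TRIzol extraction was followed by library preparation with the VAHTS Universal kit. HTSeq, HISAT2, fastp and the build GRCh38.p13 appear in the submitters' processing notes. Strandedness was not stated. The authors deposited raw read counts per gene symbol and FPKM values, which equal the counts over gene length and library total to within 0.000115%. Counts were tested with edgeR 4.0.16 in R 4.3.3 (filterByExpr, TMM, robust quasi-likelihood F-test, two-sided, Benjamini-Hochberg over 14431 genes, 1 fit of all 6 libraries). Standard errors are the fold change over the square root of F. The biological coefficient of variation was 10.8%. The test was also run on counts simulated from the fit of these data, with results not reported here. Positions, exon overlaps and shared 50-base stretches come from GENCODE v29, which is not the annotation used for counting. Promoters come from RefSeq. Replicates differed by more than sampling noise. Members and lists were chosen with earlier results of these data known. Every called member is given in full. Of each further list the rule named up to 4 called genes with the largest fold changes, of which some are not reported here, and genes beyond it were named after their values were seen. Alternatives were other scalings and filters, DESeq2 1.42.0, limma 3.58.1 (voom, and log2 FPKM with pseudocounts of 1 and 0.1), a replicate block and leaving out libraries.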

Additional observations from a re-analysis of the deposited data

How the results depend on the processing

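Of the 12 called members, 10 kept their call under all alternatives other than leaving out both libraries of high mitochondrial share, where LOX lost it: SLC2A3, PFKL, ENO2, LDHA, HIF1A, EPAS1, CA12, NDRG1, ADM and LOX. PFKFB2 lost its call under 4 alternatives (limma on FPKM with either pseudocount, adjusted p 0.0921 and 0.0904, the replicate block, 0.0728, and without vector replicate 3, 0.157), and P4HA2 under limma on log2(FPKM + 1), with an adjusted p of 0.0513. No called member changed sign. Member counts ran from 10 to 14. Over all genes 1670 were called, 977 with the replicate block and 934 to 1872 with 1 library left out. Pentose phosphate genes had 1 call, 2 with library totals only and 1 to 2 with 1 library left out. The cause of these moves was not tested. Whether replicate numbers pair the samples is unknown from the labels. Same-numbered libraries had residual correlations of 0.07, -0.16 and -0.12, and not every library correlated best with its own number. These residuals were taken from means of 3 libraries, so they cannot settle whether same-numbered libraries shared a culture or batch. With the block 11 members were called. With raw counts in place of FPKM, the differences in share became 0.525 percentage points for CA9 and 3.09 for BNIP3. Intervals here reflect 3 libraries a group, and members under about 2 CPM, such as CA9 and ALDOC, had SEs over 0.3.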
